A study of Mus musculus with 9 samples.

Results

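A set of 10 endothelial genes was followed through 9 mouse RNA sequencing libraries. They were chosen by symbol from the 24421 gene symbols in each table. Pecam1, Kdr and Cldn5 served as pan-endothelial genes. Selp, Sele and Plvap served as activation genes. Ptprb, Vwf, Tmem100 and Ly6c1 belonged to neither set. Every gene was present in all 9 tables and passed the filter on low counts.

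Endothelial cells line blood vessels, hold plasma inside them through junctions between neighbouring cells, and control which leukocytes leave the blood. Pan-endothelial genes are transcribed in most vessels at rest. Inflammatory cytokines additionally make venular endothelium display P-selectin and E-selectin, on which leukocytes tether and roll, and this altered state is called endothelial activation. Skeletal muscle capillaries have a continuous wall, while many kidney capillaries have fenestrae, small pores that are often closed by a diaphragm.

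The samples were total RNA of muscle or kidney. In muscle there was 1 library labelled tumour and given MDC and 1 labelled tumour and given PBS, the saline vehicle. A further pair of libraries was labelled beta-arrestin knockout, 1 given DKK1, a secreted Wnt antagonist that binds LRP6, and 1 given PBS. Wild type muscle had 1 library given DKK1 and 2 given PBS, called wild type libraries 1 and 2. Kidney had 1 tumour and 1 wild type library, both given PBS. The labels used here do not name the tumour, the arrestin gene, the agent MDC, or the strain, sex or age of the mice, and do not say whether libraries came from separate animals. The p-values therefore measure only the spread between libraries, which may be technical. Table names carried a set letter of unstated meaning. It was A for kidney, B for tumour muscle together with wild type library 1, and C for the remaining 4 muscle libraries. Wild type PBS muscle, the only group with 2 libraries, was thus split between sets B and C. Its spread cannot be told apart from a difference between these sets.

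Total counts were between 21358854 and 32607835 in muscle, against 44421797 in the tumour kidney and 42480786 in the wild type kidney. Levels are given as CPM, counts scaled to library size, after TMM scaling over the 9 libraries. A floor of 3 counts, the limit set for a gene with 0 counts, corresponded to 0.0512 to 0.148 CPM. The knockout labels were set against the arrestin genes first, and neither was below its wild type range. Arrb1 had 31.6 CPM in the labelled knockout given DKK1 and 22.7 in that given PBS, against 23.5 in wild type DKK1 and 18.2 and 21.9 in the wild type PBS libraries. Arrb2 had 8.93 CPM in the labelled knockout given DKK1 and 10.6 in that given PBS, against 8.85 in wild type DKK1 and 7.99 and 8.48 in the wild type PBS libraries. Counts over a whole gene do not check the loss of part of it, and the labels do not say what was removed. The wild type PBS pair, the only replicated group, differed within itself. Library 2 was 2.11 times library 1 for Pecam1, 2.13 times for Kdr, 2.60 times for Ptprb, 2.73 times for Vwf and 3.17 times for Tmem100. Those 5 of the 10 genes were 2-fold or more higher with 100 or more counts, against 14.9% of all genes with that many counts, and none was 2-fold lower, against 11.4%. Sele had a ratio of 2.39, from 5 counts in library 2 and 2 in library 1. For Cldn5 the ratio was 0.828, for Selp 0.722, for Plvap 1.30 and for Ly6c1 0.921. Each comparison with wild type PBS muscle is therefore also given against each library.

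Promoter sequence was available in the RefSeq table for 5 of the 10 genes. Both selectin promoters are shown because Selp and Sele were both highest in tumour PBS muscle. That of Cldn5, which was high in the same libraries, and that of Kdr, which was not, are shown with them. The promoter of Ly6c1, also highest in tumour PBS muscle, was available but is not shown and its matches were not listed. Each run is the 250 bases before the RefSeq transcription start on build GRCm38.p6, on the gene's own strand. Capitals mark every match to an NF-kappa-B type motif, GGGNNNNNCC on either strand, which 45.8% of the 32851 RefSeq promoters searched held. The windows are chr1:164047984-164048233, plus strand, for Sele, chr1:164115014-164115263, plus strand, for Selp, chr16:18776597-18776846, plus strand, for Cldn5, and chr5:75978456-75978705, minus strand, for Kdr.
Sele: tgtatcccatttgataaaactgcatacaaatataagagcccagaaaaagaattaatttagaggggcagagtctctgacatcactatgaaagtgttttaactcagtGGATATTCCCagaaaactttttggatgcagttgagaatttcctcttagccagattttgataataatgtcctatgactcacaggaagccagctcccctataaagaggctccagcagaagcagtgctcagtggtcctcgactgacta
Selp: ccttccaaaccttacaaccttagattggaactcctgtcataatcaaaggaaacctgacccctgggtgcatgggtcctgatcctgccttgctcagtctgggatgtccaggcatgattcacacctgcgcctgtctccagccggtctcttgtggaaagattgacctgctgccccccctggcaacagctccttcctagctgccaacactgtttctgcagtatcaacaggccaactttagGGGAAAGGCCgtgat
Cldn5: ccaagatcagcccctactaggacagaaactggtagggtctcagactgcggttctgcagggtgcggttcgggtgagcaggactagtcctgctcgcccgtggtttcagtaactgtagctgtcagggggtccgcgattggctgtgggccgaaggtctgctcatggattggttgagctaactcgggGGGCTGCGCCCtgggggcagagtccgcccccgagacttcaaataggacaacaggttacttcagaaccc
Kdr: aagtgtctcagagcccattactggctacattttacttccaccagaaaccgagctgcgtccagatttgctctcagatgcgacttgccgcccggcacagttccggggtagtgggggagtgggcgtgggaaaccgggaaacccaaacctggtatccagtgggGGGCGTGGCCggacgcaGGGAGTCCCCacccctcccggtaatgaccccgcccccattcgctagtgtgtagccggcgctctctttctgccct
The match in Sele lay 145 to 136 bases before the start, and a TATA box, TATAAA, lay 49 to 44 bases before it. TATAAA was found in 12.4% of the promoters. The match in Selp lay 15 to 6 bases before the start. In Cldn5 a pair of overlapping matches began 68 and 67 bases before the start, and in Kdr matches began 91 and 74 bases before it. All 4 promoters shown thus held the motif, and it does not separate the selectins from Kdr. A match is a description of the letters and not a binding site.

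Selp encodes P-selectin, which endothelial cells store in granules and bring to the surface within minutes, and which platelets also carry. The gene lies at chr1:164115264-164150026 on the plus strand of GRCm38. Selp had 31.2 CPM in tumour PBS muscle, 8.55 in tumour MDC muscle, 1.16 in the labelled knockout given DKK1, 1.27 in the labelled knockout given PBS and 3.38 in wild type DKK1 muscle, against 2.02 and 1.46 in wild type libraries 1 and 2. Both tumour libraries stood above the other 5 muscle libraries without overlap. Tumour PBS muscle was 15.4-fold above wild type library 1 and 21.4-fold above library 2, from 983 counts. In kidney Selp had 1.21 CPM in the tumour library and 0.324 in the wild type library, from 71 and 18 counts. The kidney ratio was 3.74, with an exact binomial 95% interval of 2.21 to 6.67 that covers counting error only. Selp was thus higher in the tumour library of either tissue, at far lower levels in kidney. Opposite-strand genes overlap 14.1% of Selp's exonic bases, and the strand setting of the counting is not given in the sources used here. Of these, Gm16548 had 332 counts in tumour PBS muscle, 82 in tumour MDC muscle, 14 and 4 in the labelled knockout given DKK1 and PBS, 36 in wild type DKK1 muscle, and 16 and 9 in wild type libraries 1 and 2. Its counts were 33.8% of those of Selp in tumour PBS muscle, against 39.0% and 29.0% in the wild type pair. Without the strand setting, reads in the overlapping bases cannot be told apart. In kidney Gm16548 had 25 counts in the tumour library, 35.2% of those of Selp, and 20 in the wild type library, 111% of Selp's 18.

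Sele, at chr1:164048234-164057677 on the plus strand, encodes E-selectin, which resting endothelium hardly makes and which inflammatory cytokines induce at transcription. Sele and Selp lie 57586 bases apart. Sele had the fewest counts of the 10 genes in every library. It had 81 counts in tumour PBS muscle, 22 in tumour MDC muscle, 14 in the labelled knockout given DKK1, 0 in the labelled knockout given PBS and 7 in wild type DKK1 muscle, against 2 and 5 in wild type libraries 1 and 2. As CPM this was 2.57 in tumour PBS and 1.05 in tumour MDC muscle, against at most 0.476 in the other 5 libraries. Both tumour libraries were again highest. Tumour PBS muscle was 26.1-fold above wild type library 1, with an exact binomial 95% interval of 6.99 to 219. Against library 2 the ratio was 10.9, with an interval of 4.49 to 34.5. In kidney Sele had 0.427 CPM in the tumour and 0.306 in the wild type library, a ratio of 1.39 whose interval of 0.724 to 2.75 includes no difference.

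Plvap encodes the protein of the diaphragms that close fenestrae and caveolae, and is used as a sign of leaky or remodelled capillaries. It lies at chr8:71497765-71511752 on the minus strand. Plvap had 73.9 CPM in tumour PBS muscle, 46.1 in tumour MDC muscle, 25.0 in the labelled knockout given DKK1, 14.2 in the labelled knockout given PBS and 40.0 in wild type DKK1 muscle, against 16.8 and 21.8 in wild type libraries 1 and 2. The tumour libraries were highest, followed by wild type DKK1. In kidney the order was the other way, with 45.6 CPM in the tumour and 52.7 in the wild type library, a ratio of 0.865 with a counting interval of 0.821 to 0.912. Plvap was the only 1 of the 10 genes that was lower in the tumour kidney while the tumour PBS muscle was above both wild type libraries. The difference between the kidney and the muscle tumour effect was -2.15 ± 0.88 on the log2 scale (edgeR, SE). Its unadjusted p was 0.0409 and its adjusted p 1.00, and edgeR called 0% of all genes in that contrast, with 99 at an unadjusted p under 0.05.

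**Figure D1:**
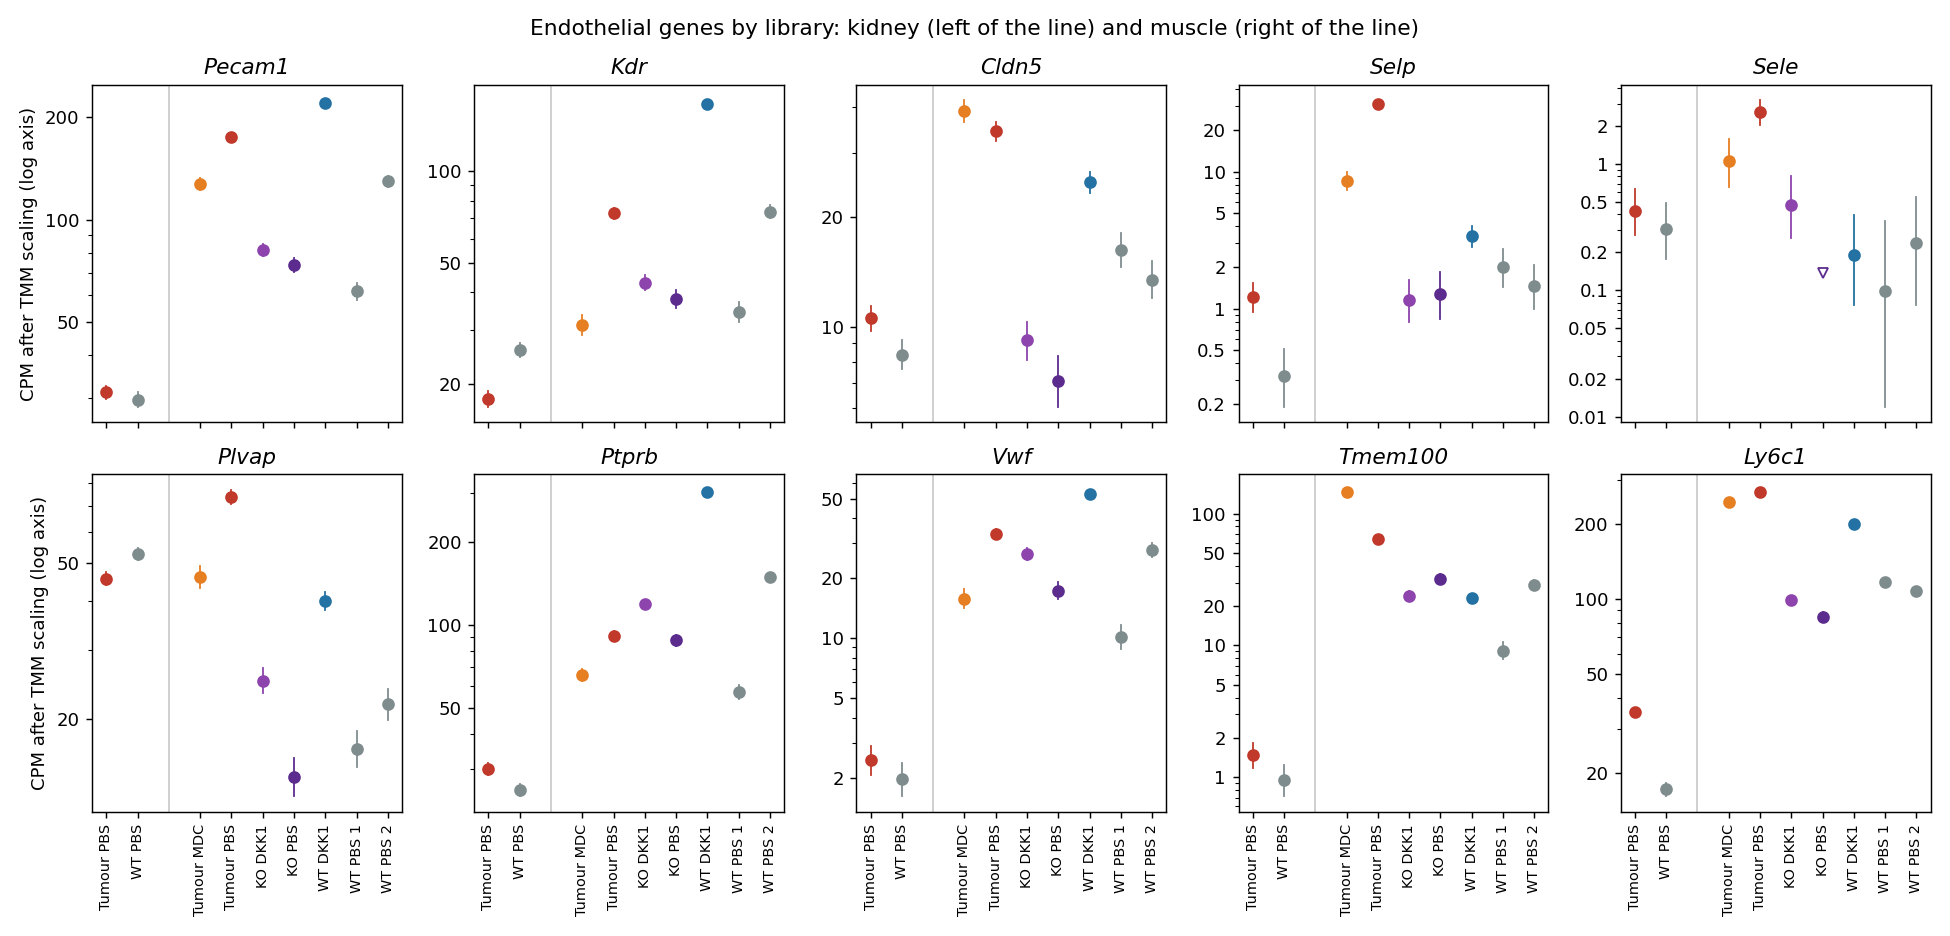
CPM after TMM scaling (log axis) of each of the 10 genes, 1 point per library (WT, wild type, and KO, labelled knockout), with exact Poisson 95% intervals of the counts as bars and kidney left of the line. The open triangle marks 0 counts, drawn at the 3-count floor. Selp, Sele, Plvap, Cldn5, Tmem100 and Ly6c1 have both tumour muscle points above the other 5 muscle points.

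Cldn5, the claudin of endothelial tight junctions, was the pan-endothelial gene that was high in the tumour libraries. It has 1 exon, at chr16:18776847-18778262 on the plus strand. Cldn5 had 39.1 CPM in tumour MDC muscle, 34.4 in tumour PBS muscle, 9.17 in the labelled knockout given DKK1, 7.10 in the labelled knockout given PBS and 24.9 in wild type DKK1 muscle, against 16.3 and 13.5 in wild type libraries 1 and 2. Both tumour libraries were above and both labelled knockout libraries below the other muscle libraries. Kidney held 10.6 CPM in the tumour and 8.39 in the wild type library.

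Pecam1 encodes an adhesion molecule of endothelial contacts that platelets and leukocytes also carry, and lies at chr11:106654217-106750628 on the minus strand. Its level was 127 CPM in tumour MDC muscle, 175 in tumour PBS muscle, 81.3 in the labelled knockout given DKK1, 73.6 in the labelled knockout given PBS and 219 in wild type DKK1 muscle, against 61.6 and 130 in wild type libraries 1 and 2. Wild type DKK1 muscle was highest, and the tumour MDC library lay between the wild type pair. Kidney held 31.2 CPM in the tumour and 29.7 in the wild type library, a ratio of 1.05 with a counting interval of 0.982 to 1.12.

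Kdr encodes VEGFR2, the main signalling receptor for VEGF-A, and lies at chr5:75932827-75978458 on the minus strand. It had 31.2 CPM in tumour MDC muscle, 72.7 in tumour PBS muscle, 43.1 in the labelled knockout given DKK1, 38.0 in the labelled knockout given PBS and 167 in wild type DKK1 muscle, against 34.6 and 73.7 in wild type libraries 1 and 2. Tumour PBS muscle stood level with wild type library 2, and tumour MDC muscle was below both wild type libraries. Kidney held 17.9 CPM in the tumour and 25.8 in the wild type library. That ratio was 0.693 with a counting interval of 0.639 to 0.751, so Kdr and Plvap were the 2 of the 10 genes with a lower count level in tumour kidney.

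Ptprb, which encodes the phosphatase VE-PTP that holds down signalling at endothelial junctions, lies at chr10:116275523-116389535 on the plus strand. Ptprb had 65.7 CPM in tumour MDC muscle, 91.2 in tumour PBS muscle, 118 in the labelled knockout given DKK1, 87.7 in the labelled knockout given PBS and 303 in wild type DKK1 muscle, against 57.1 and 149 in wild type libraries 1 and 2. No library but wild type DKK1 was outside the range of the wild type pair. Vwf, at chr6:125546774-125686679 on the plus strand, encodes von Willebrand factor, the clotting protein stored with P-selectin. Its level was 15.8 CPM in tumour MDC muscle, 33.3 in tumour PBS muscle, 26.5 in the labelled knockout given DKK1, 17.3 in the labelled knockout given PBS and 53.0 in wild type DKK1 muscle, against 10.2 and 27.7 in wild type libraries 1 and 2. Selp and Vwf, whose products share a storage granule, had their highest muscle levels in different libraries.

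Tmem100 encodes a small membrane protein whose transcription in endothelium depends on BMP9 and BMP10 acting through the receptor ALK1. It lies at chr11:90030348-90036508 on the plus strand. Tmem100 had 147 CPM in tumour MDC muscle, 64.7 in tumour PBS muscle, 23.9 in the labelled knockout given DKK1, 32.1 in the labelled knockout given PBS and 23.0 in wild type DKK1 muscle, against 9.13 and 28.9 in wild type libraries 1 and 2. It was the only one of the 10 genes that was more than 2-fold higher in tumour MDC than in tumour PBS muscle. Ly6c1, a surface protein of mouse capillary endothelium and some leukocytes, lies at chr15:75044018-75048830 on the minus strand. Ly6c1 had 244 CPM in tumour MDC muscle, 268 in tumour PBS muscle, 99.0 in the labelled knockout given DKK1, 84.2 in the labelled knockout given PBS and 200 in wild type DKK1 muscle, against 116 and 107 in wild type libraries 1 and 2. The tumour libraries were highest and the labelled knockout libraries lowest. Ly6c2, a monocyte gene with a similar sequence that lies 59327 bases away, had 13.8 CPM in tumour MDC muscle and 13.5 in tumour PBS muscle, against 5.13 and 1.18 in wild type libraries 1 and 2. How the counting divided reads between the 2 genes is not given, so values of Ly6c1 are uncertain to that extent.

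In tumour PBS muscle 5 of the 10 genes, Cldn5, Selp, Plvap, Tmem100 and Ly6c1, were 2-fold or more above both wild type libraries with 100 or more counts. Of all genes with that many counts, 1.36% were, and 0.399% were lower, against none of the 10. Plvap was 4.41-fold above library 1 and 3.40-fold above library 2, and Tmem100 was 7.09-fold and 2.24-fold above them. Cldn5 was 2.11-fold and 2.55-fold above them, and Ly6c1 was 2.30-fold and 2.49-fold above them. With wild type library 1 as the only reference 8 of the 10 genes were past 2-fold, beside 1232 of all genes in either direction. With library 2 as the only reference 5 were, beside 1754 of all genes, where the rule on both libraries counted 154 higher and 45 lower. None of the 10 passed edgeR's quasi-likelihood test, which called 0% of 15482 genes in this comparison. At an unadjusted p under 0.05 there were 137 genes, 4 of them among the 10, and limma-voom called 0. Selp had a fitted log2 change of 4.16 ± 0.78 (SE), with an unadjusted p of 0.000401 and an adjusted p of 0.975. DESeq2 called 12 genes, of which Selp was 1, at an adjusted p of 0.00515. Over the 9 settings Selp's adjusted p was between 0.00165 and 1, and its log2 change between 3.95 and 4.34. Both tumour muscle libraries stood above the other 5 muscle libraries for 6 of the 10 genes (8.07% of all genes) and below them for none (8.60% of all genes).

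A fit that added the set letter as a term compared the tumour libraries with wild type library 1 alone. It took its 1 residual degree of freedom from the DKK1 and labelled knockout libraries, so the tumour libraries were assumed to vary like those. That fit called 7 of the 10 genes higher in tumour PBS muscle (Pecam1, Cldn5, Selp, Plvap, Tmem100, Vwf and Ly6c1), against 5.60% of all genes, and none lower, against 1.78% (7.38% in both directions). Selp's log2 change was then 3.95 ± 0.46 (SE, adjusted p 0.00165), that of Plvap 2.14 ± 0.20 (SE, adjusted p 0.000609) and that of Tmem100 2.82 ± 0.22 (SE, adjusted p 0.000289). For Plvap and Tmem100 the adjusted p over the 9 settings reached up to 1. Pecam1 and Vwf were called against library 1 but had log2 differences of 0.43 and 0.27 from library 2.

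Neutrophil and erythroid markers were also higher in the tumour libraries, while those of macrophages and platelets overlapped the wild type pair in muscle. The summed level of 13 neutrophil genes was 405 CPM in tumour PBS and 51.7 in tumour MDC muscle, against 15.6 and 11.7 in wild type libraries 1 and 2. In kidney it was 75.9 CPM in the tumour and 3.82 in the wild type library. None of the 13 genes was at 0 in the tumour libraries, and Mpo, Elane and Mmp8 were at 0 in wild type library 1. The sum over 12 macrophage and monocyte genes was 353 CPM in tumour PBS and 192 in tumour MDC muscle, against 106 and 634 in the wild type pair. The sum over 12 platelet genes was 30.6 CPM in tumour PBS and 24.8 in tumour MDC muscle, against 14.3 and 30.4 in the wild type pair, which overlaps, and Gp6, the platelet collagen receptor, was at 0 in all 7 muscle libraries. In kidney the platelet sum was 36.2 CPM in the tumour and 44.3 in the wild type library. The sum over 4 measured of 5 erythroid genes was 1399 CPM in tumour PBS and 2745 in tumour MDC muscle, against 348 and 351 in the wild type pair. The part of these cells in the levels of Selp, Pecam1 and Ly6c1 was not tested. In tissue RNA more endothelial cells and more RNA per endothelial cell cannot be told apart.

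**Figure D2:**
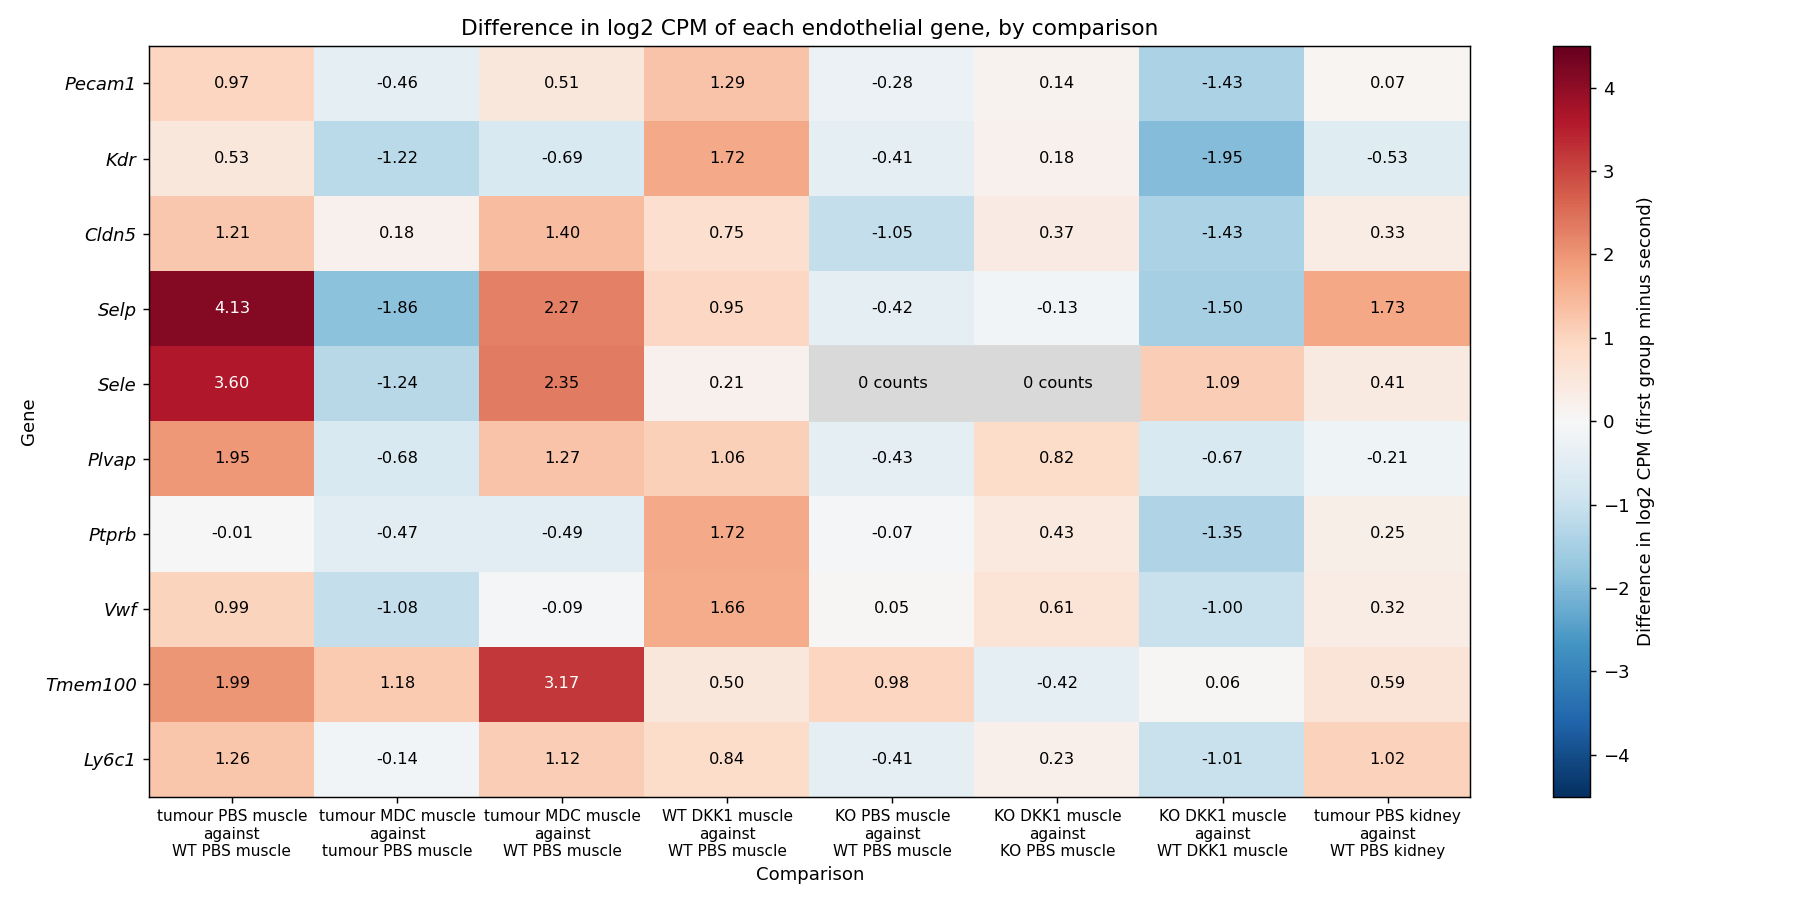
Difference in log2 CPM (prior count 2) for each of the 10 genes (rows) in 8 comparisons (columns), first group minus second, with the wild type PBS muscle group as the mean of its 2 libraries. Grey cells mark Sele against a library with 0 counts. Selp in tumour PBS muscle has the highest value, 4.13, and the column for the labelled knockout against wild type DKK1 is negative for 8 of the 10 genes.

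MDC was compared with PBS in 1 tumour muscle library each. With 100 or more counts, Kdr, Selp and Vwf were lower by 2-fold or more in tumour MDC muscle, where 3.40% of all genes were, and Tmem100 was higher, where 1.13% were. Sele, below that minimum, had 22 counts in tumour MDC and 81 in tumour PBS muscle, a ratio of 0.409 with a counting interval of 0.243 to 0.661. Selp was 3.65-fold lower, Kdr 2.33-fold lower and Vwf 2.11-fold lower, while Tmem100 was 2.27-fold higher. Cldn5 and Ly6c1 differed little, with log2 differences of 0.18 and -0.14. None of the 10 genes passed edgeR's test, which called 0% of all genes, with 17 genes at an unadjusted p under 0.05 and none of the 10 among them, and DESeq2 and limma-voom each called 0. With the set term edgeR called 34 genes, 0.220% of all (0.0258% higher, 0.194% lower), and again none of the 10. Tmem100 came nearest, at 1.18 ± 0.20 on the log2 scale (SE, adjusted p 0.0538, 0.0538 to 1 over the settings).

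Against wild type PBS muscle, with which it shares the references of the PBS comparison, tumour MDC muscle had the same 5 genes 2-fold or more above both libraries (0.719% of all genes) and none below (0.663%). Tmem100 was 16.1-fold above library 1 and 5.07-fold above library 2, and Selp was 4.23-fold and 5.85-fold above them. EdgeR's test found 0%, 147 genes having an unadjusted p under 0.05, of which 4 were among the 10. DESeq2 called 11 genes and limma-voom 0, none of them among the 10. With the set term Cldn5, Selp, Plvap and Tmem100 were called higher (1.30% of all genes) and none lower (0.885%, or 2.18% in both directions), Tmem100 by 4.01 ± 0.22 on the log2 scale (SE, adjusted p 5.46e-05, up to 1 over the settings). Kdr was lower than in both wild type libraries by log2 differences of -0.15 and -1.24.

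DKK1 in wild type muscle was compared with the PBS pair. Kdr was 4.82-fold above library 1 and 2.26-fold above library 2, and Ptprb was 5.30-fold and 2.04-fold above them, the 2 genes of the 10 past 2-fold (2.19% of all genes), and none was lower (0.292%). Vwf missed that line at 5.22-fold and 1.91-fold, and Pecam1 at 3.56-fold and 1.69-fold. With library 1 as the only reference 6 of the 10 were past 2-fold, as were 3735 of all genes in either direction, and with library 2 as the only reference 3 were, with 469 of all genes. Selp differed by log2 values of 0.72 and 1.18, and Sele had 7 counts. Wild type DKK1 was the highest of the 7 muscle libraries for Pecam1, Kdr, Ptprb and Vwf, 4 of the 10, where 19.3% of all genes were highest in that library. Tumour PBS was the highest for Selp, Sele, Plvap and Ly6c1, where 9.53% of all genes were. For DKK1 edgeR called 0%. The unadjusted p was under 0.05 for 132 genes, of which 3 were among the 10, and DESeq2 called 4 genes and limma-voom 0, none of them among the 10. Kdr's log2 change was 1.62 ± 0.63 (SE, unadjusted p 0.0279, adjusted p 1). With the set term Plvap and Vwf were called higher (0.588% of all genes) and none lower (0.239%, or 0.827% in both directions), at 0.85 ± 0.14 (SE, adjusted p 0.0281) and 0.78 ± 0.15 (SE, adjusted p 0.0467). That fit assumes 1 shared DKK1 effect in wild type and labelled knockout muscle, and over the settings both adjusted p reached up to 1.

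Smooth muscle and fibroblast genes were high in the same wild type DKK1 library. The summed level of 6 smooth muscle genes was 493 CPM there, against 165 and 309 in wild type libraries 1 and 2. That of 6 fibroblast genes was 1556 CPM, against 437 and 957 in the wild type pair. That of 8 skeletal muscle genes was 94693 CPM, against 266914 and 132380 in the wild type pair. This was the lowest muscle gene sum of the 7 libraries, but the list did not move as a whole. Mb was higher in the DKK1 library, at 5274 CPM against 499 and 4396 in the wild type pair. Myh1 lay within the wild type pair, at 9069 CPM against 2632 and 10398, and the other genes of the list were below both. Wild type library 2 lay between the DKK1 library and library 1 in each of these 3 sums, as it did for Pecam1, Kdr, Ptprb and Vwf. For 12 macrophage and monocyte genes the sum was 364 CPM in wild type DKK1 muscle, against 106 and 634 in the wild type pair, and for 6 adipocyte genes it was 292 CPM, against 59.9 and 491. Both of these lay within the wild type pair. The part of cell makeup in the levels of these 4 genes was not tested.

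In the labelled knockout, DKK1 was compared with PBS in 1 library each. None of the 10 genes was past 2-fold with 100 or more counts, where 2.34% of all genes were higher and 0.655% lower. The nearest was Plvap, 1.76-fold higher. Sele had 14 counts with DKK1 and 0 with PBS, which is at least 3.48-fold higher when PBS is set to 3 counts. No gene passed edgeR's test (0%), DESeq2 or limma-voom. An unadjusted p under 0.05 was reached by 37 genes in edgeR, none of them among the 10. The DKK1 effect in the labelled knockout minus that in wild type muscle was -1.44 ± 0.99 for Kdr on the log2 scale (SE, unadjusted p 0.178, adjusted p 1.00). For Pecam1 it was -1.05 ± 1.03 and for Ptprb -1.12 ± 1.09, and edgeR called 0% in that contrast, where 29 genes had an unadjusted p under 0.05. DESeq2 called 3 genes there and limma-voom 0, none of them among the 10. The DKK1 effects of the 2 genotypes are therefore not shown to differ for any of the 10 genes.

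Under DKK1 the labelled knockout was 2-fold or more below wild type for 7 of the 10 genes (Pecam1, Kdr, Cldn5, Selp, Ptprb, Vwf and Ly6c1), as were 8.78% of all genes, and none was higher (3.38%). Kdr was 3.87-fold lower, Selp 2.92-fold, Cldn5 2.71-fold and Pecam1 2.70-fold lower. Summed markers of other cells also differed between these 2 libraries. Smooth muscle genes summed to 214 CPM in the labelled knockout and 493 in wild type, fibroblast genes to 767 and 1556, and adipocyte genes to 11.1 and 292. Skeletal muscle genes summed to 164066 CPM in the labelled knockout and 94693 in wild type. Within that list Mb and Myh1 went the other way, at 3290 and 4753 CPM in the labelled knockout against 5274 and 9069 in wild type. The part of cell makeup in the lower levels of the 7 genes was not tested. Under PBS the labelled knockout was past 2-fold below both wild type libraries for none of the 10 (0.561% of all genes, with 0.846% higher), and for 1 of them, Cldn5, past 1.5-fold, as were 608 of all genes in either direction. EdgeR called 0% in either comparison. At an unadjusted p under 0.05 there were 152 genes under DKK1, with Kdr among them, and 139 under PBS, with none of the 10. DESeq2 called 14 genes under DKK1 and 19 under PBS, and limma-voom 0 in both, none of them among the 10. With the set term 7 of the 10 were called lower in the labelled knockout (Pecam1, Kdr, Cldn5, Plvap, Ptprb, Vwf and Ly6c1), against 10.4% of all genes, and none higher, against 10.5% (20.9% in both directions). That fit gives both treatments 1 shared genotype difference. It was -1.46 ± 0.22 for Kdr (edgeR, SE, adjusted p 0.00198) and -1.20 ± 0.18 for Cldn5 (SE, adjusted p 0.00180), and over the settings both adjusted p reached up to 1. Both labelled knockout libraries were below the other 5 muscle libraries for Cldn5, Selp and Ly6c1, 3 of the 10, where 6.97% of all genes were. With the set term 6 of 8 pericyte, 5 of 6 smooth muscle, 7 of 12 macrophage and monocyte and 6 of 6 adipocyte genes were also called lower in the labelled knockout.

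Subtracting the mean log2 CPM of Pecam1, Kdr and Cldn5 from that of Selp, Sele and Plvap gave an activation level relative to the pan-endothelial level in each library. It was -2.06 in tumour PBS muscle, -2.82 in tumour MDC muscle, -3.65 in the labelled knockout given DKK1, -4.69 in the labelled knockout given PBS and -4.90 in wild type DKK1 muscle, against -4.20 and -4.56 in wild type libraries 1 and 2. Both tumour libraries were highest, and wild type DKK1 was lowest, below both wild type PBS libraries. With a prior count of 0.5 the labelled knockout given PBS, where Sele had 0 counts, differed from wild type PBS by -0.86. The lowest place therefore depends on the prior count. In kidney the activation level was -2.57 in the tumour and -3.26 in the wild type library. The tumour difference was 2.33 in muscle for PBS, 1.56 for MDC and 0.68 in kidney. Without Plvap these were 2.97, 1.91 and 1.11.

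**Figure D3:**
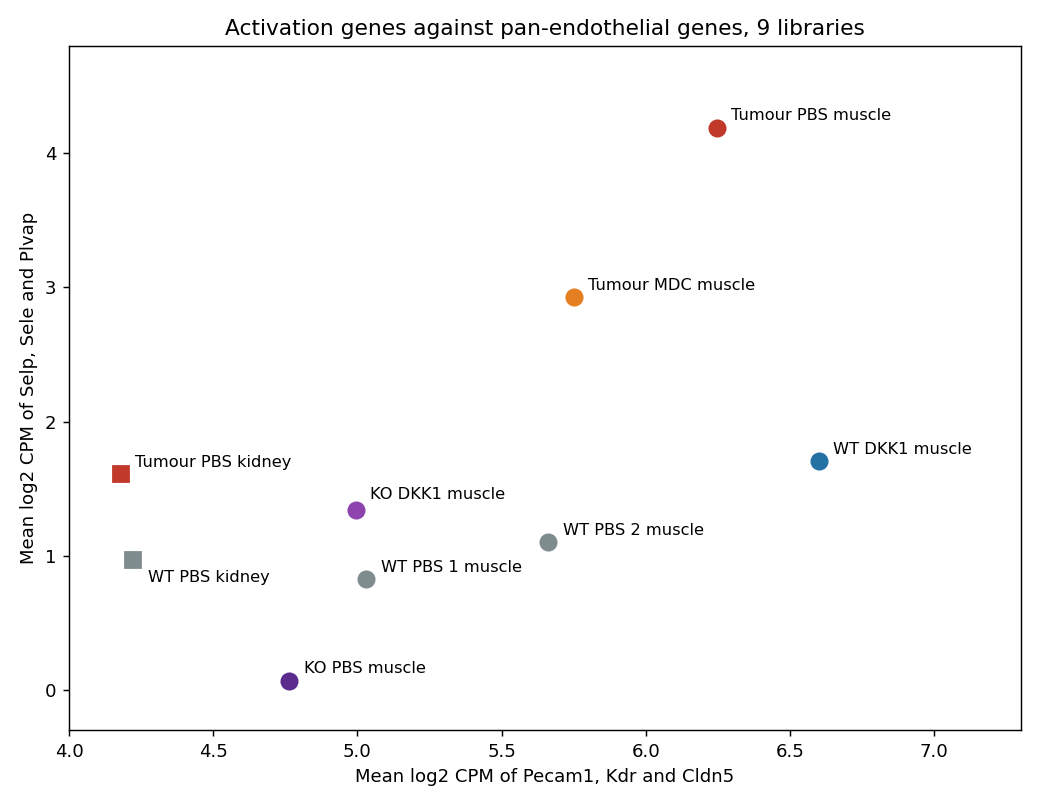
Mean log2 CPM of Selp, Sele and Plvap (y axis) against mean log2 CPM of Pecam1, Kdr and Cldn5 (x axis), 1 point per library, circles for muscle and squares for kidney. The tumour PBS muscle point is highest at 4.19 and the wild type DKK1 point is farthest right at 6.60.

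Ratios of raw counts within a library do not depend on the scaling. Per 100 Pecam1 counts there were 17.9 Selp counts in tumour PBS muscle, 6.72 in tumour MDC muscle, 1.42 in the labelled knockout given DKK1, 1.73 in the labelled knockout given PBS and 1.54 in wild type DKK1 muscle, against 3.28 and 1.13 in wild type libraries 1 and 2. The 2 tumour ratios were the highest. In kidney there were 3.89 in the tumour and 1.09 in the wild type library. Kdr counts per 100 Pecam1 counts were 24.5 in tumour MDC muscle, 41.6 in tumour PBS muscle, 53.0 in the labelled knockout given DKK1, 51.5 in the labelled knockout given PBS and 76.0 in wild type DKK1 muscle, against 56.1 and 56.8 in the wild type pair. This ratio hardly differed within the wild type pair, and both tumour libraries were below it. In kidney Kdr had 57.4 in the tumour and 87.0 in the wild type library, so relative to Pecam1 it was lower in all 3 tumour libraries than in the wild type PBS libraries of the same tissue. For Cldn5 the ratio was 30.7 in tumour MDC and 19.7 in tumour PBS muscle, against 26.4 and 10.4 in the wild type pair, which overlaps. These readings depend on Pecam1 as the denominator, which platelets and leukocytes also carry. Cdh5, a further pan-endothelial gene, had 4889 counts in tumour PBS and 2652 in tumour MDC muscle, against 1840 and 3235 in the wild type pair. Relative to Cdh5, Kdr in tumour PBS muscle lay within the wild type pair. In tumour MDC muscle and tumour kidney it stayed below wild type. Cldn5 relative to Cdh5 was above the pair in both tumour muscle libraries.

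**Figure D4:**
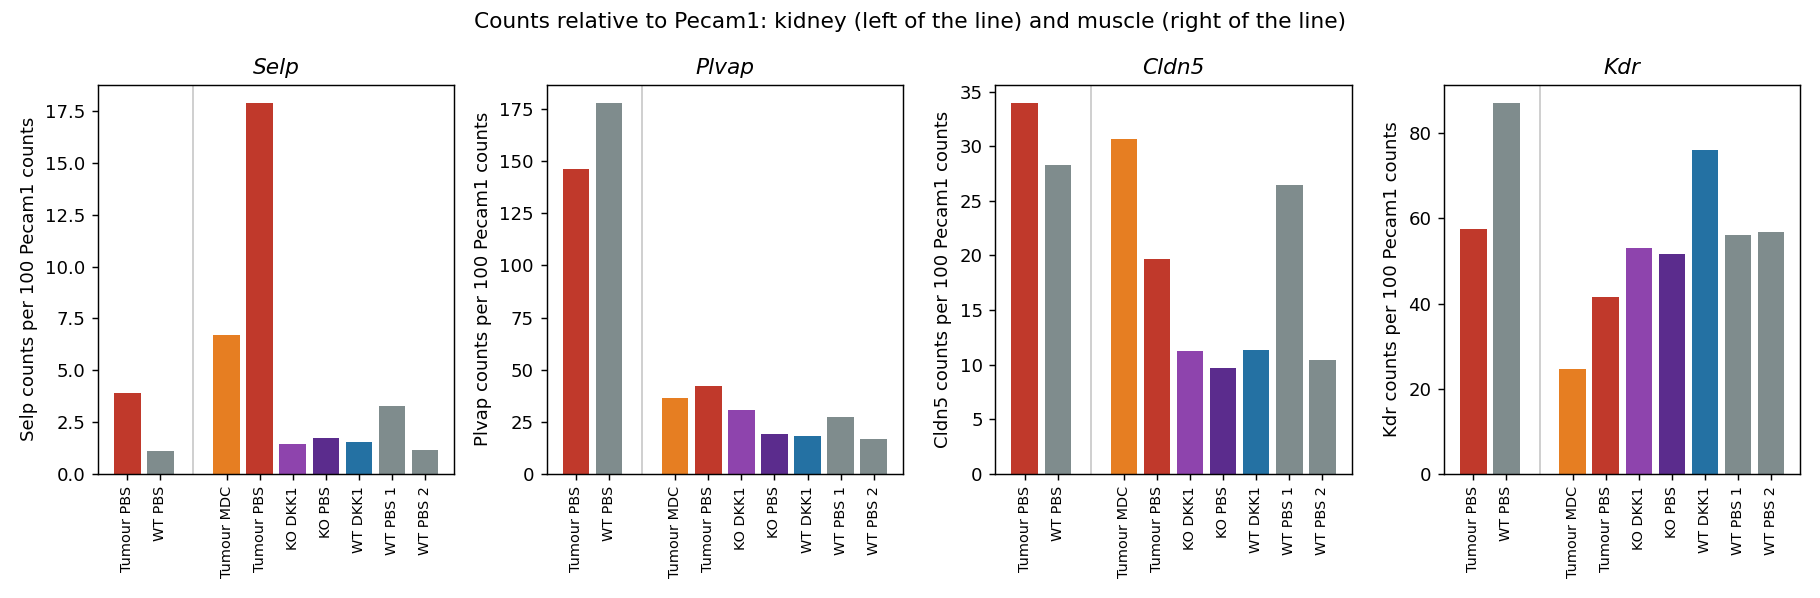
Raw counts of Selp, Plvap, Cldn5 and Kdr per 100 Pecam1 counts (linear axes from 0), 1 bar per library, kidney left of the line. Selp reaches 17.9 in tumour PBS muscle and is at most 3.28 in the 5 muscle libraries without tumour, while Plvap is 147 and 178 in tumour and wild type kidney and at most 42.3 in muscle.

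Over the 7 muscle libraries pairs that ran together were found both within and across the pan-endothelial and activation sets. Within the activation set Selp and Plvap had a Pearson r of 0.90 and a Spearman rho of 0.75, and an r of 0.64 without the 2 libraries farthest from Selp's median. Sele and Plvap had an r of 0.90 and a rho of 0.89, and an r of 0.68 without the 2 farthest. Selp and Sele had an r of 0.81 and a rho of 0.54, but an r of 0.01 without the 2 farthest libraries, on which that value rests. Within the pan-endothelial set Pecam1 and Kdr had an r of 0.81 and a rho of 0.75, and an r of 0.77 without the 2 farthest. Cldn5 ran with Ly6c1, which is in neither set, with a Pearson r of 0.97, a Spearman rho of 0.96 and an r of 0.96 without the 2 libraries farthest from Cldn5's median. Across the sets, between Cldn5 and Selp, r was 0.86 and rho 0.93, and it was 0.89 without the 2 farthest. Between Cldn5 and Kdr, both pan-endothelial, r was 0.25 and rho -0.11. Kdr ran with Vwf, at an r of 0.90 and a rho of 0.93, and 0.82 without the 2 farthest. Between Kdr and Ptprb r was 0.91 and rho 0.93, but 0.52 without the 2 farthest libraries, on which that value rests. These are descriptions of 7 libraries of different groups that share their scaling, and they are among 45 pairs computed.

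The 5 genes whose log2 CPM over the 7 muscle libraries was most like the mean of Pecam1, Kdr and Cldn5 were Mapk3, Elovl1, Rgs3, Plcb1 and Bambi, with r of 0.99 each among 8457 genes ranked. For Mapk3 this meant 38.7 CPM in tumour MDC, 49.8 in tumour PBS and 54.2 in wild type DKK1 muscle, against 30.0 and 40.0 in wild type libraries 1 and 2. In all 89 genes had an r above 0.95. Most like the mean of Selp, Sele and Plvap were Zfp472 at an r of 0.99, Tmem176a at 0.97, and Ackr1, Slc3a2 and Penk at 0.96, and 7 genes were above 0.95. Ackr1, a chemokine receptor of venular endothelium, had 12.6 CPM in tumour MDC muscle, 19.0 in tumour PBS muscle and 4.19 in wild type DKK1 muscle, against 4.19 and 3.30 in wild type libraries 1 and 2. Its r was 0.78 without the 2 farthest libraries.

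Other genes of the same functions gave a wider view. Of 26 further pan-endothelial genes, Sox18 and Ecscr were 2-fold or more above both wild type libraries in tumour PBS muscle and none was below. Their median log2 difference was 0.68 from the mean of the wild type pair, 0.99 from library 1 and 0.46 from library 2, beside 0.05 from the mean over all genes tested. Under DKK1 in wild type muscle 9 of the 26 were higher and none lower, led by Cyyr1 and Sox7, with medians of 1.51 against library 1 and 0.94 against library 2. In the labelled knockout given DKK1, 24 of the 26 were 2-fold or more below wild type DKK1, led by Sox7 and Sox18, with a median of -1.45. Cdh5, the VE-cadherin gene and the defining endothelial marker in that list, had 127 CPM in tumour MDC muscle, 155 in tumour PBS muscle, 95.6 and 86.3 in the labelled knockout given DKK1 and PBS, and 270 in wild type DKK1 muscle, against 90.8 and 152 in the wild type pair. All 26 had counts in every library, muscle and kidney. By edgeR's test none of them passed in any of these comparisons, and with the set term 25 of the 26 were called lower in the labelled knockout (10.4% of all genes) and 13 higher in tumour PBS muscle (5.60%). That fit also called 10 of 10 capillary lipid uptake genes lower in the labelled knockout, beside the pericyte and smooth muscle genes given above. In tumour PBS muscle it called 5 of 6 smooth muscle, 5 of 8 pericyte and 9 of 12 macrophage and monocyte genes higher, and 5 of 8 skeletal muscle genes lower. The part of cell makeup in these counts was not tested.

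Of 18 further activation and adhesion genes 14 passed the filter in muscle. In tumour PBS muscle Ackr1 and Icam1 were 2-fold or more above both wild type libraries and none was below. Icam1, a ligand of leukocyte integrins, had 23.9 CPM in tumour PBS muscle and 10.6 in tumour MDC muscle, against 4.29 and 5.37 in wild type libraries 1 and 2. The list's median log2 difference in tumour PBS muscle was 1.42 against library 1 and 0.13 against library 2, so for the list as a whole the wild type pair spans most of the difference. Between the tumour libraries, MDC had lower levels of Plat and Icam1 than PBS by 2-fold or more, with a median log2 difference of -0.59. With the set term 6 of the 14 were called higher in tumour PBS muscle, and by the test without it none passed. Il6, Csf3 and Cxcl2 were at or near 0 in muscle, and Madcam1 was at 0 in all 7 libraries.

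Of 12 ALK1 and BMP9 signalling genes measured in muscle, none was past 2-fold in tumour PBS or tumour MDC muscle against wild type PBS, where Tmem100 was. Their median log2 difference in tumour MDC muscle was 0.29 against library 1 and -0.02 against library 2. Under DKK1 in wild type muscle 4 of the 12 were higher, led by Id1 and the receptor gene Acvrl1. Acvrl1 had 61.5 CPM in wild type DKK1 muscle, against 13.3 and 28.7 in wild type libraries 1 and 2. Of 18 VEGF and angiopoietin genes, none was past 2-fold in tumour PBS muscle. Pgf was higher in tumour MDC muscle, at 5.78 CPM against 2.61 and 2.36 in the wild type pair, and Tie1 and Vegfc were higher in wild type DKK1 muscle.

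In kidney, with 1 library per group and no test, Ly6c1 was the only one of the 10 genes 2-fold or more above wild type with 100 or more counts, where 5.66% of all genes were. It had 35.0 CPM in the tumour and 17.2 in the wild type library, a ratio of 2.04 with a counting interval of 1.89 to 2.20. Tmem100 was 1.54-fold, Cldn5 1.26-fold, Vwf 1.25-fold and Ptprb 1.19-fold higher. None was 2-fold lower, where 4.02% of all genes were. Of 26 further pan-endothelial genes 1, Cyyr1, was past 2-fold, and the list's median was 0.13, beside 0 over all genes. Of 17 further activation genes 4 were higher, led by Lrg1 and Plat, with a median of 0.73. Lrg1 had 28.7 CPM in the tumour and 4.90 in the wild type kidney. Of 18 VEGF genes 3 were lower, led by Esm1, a tip cell gene, at 2.27 CPM in the tumour and 12.4 in the wild type kidney, and by Aplnr. Fabp4, a lipid carrier of capillaries and fat cells, had 320 CPM in the tumour and 55.2 in the wild type kidney. Adipoq, which fat cells make, had 93.9 CPM in the tumour and 7.40 in the wild type kidney. The summed level of 6 adipocyte genes was 2953 CPM in the tumour and 2490 in the wild type kidney, most of it from Pck1, which tubule cells also make. The part of fat cells in these kidney values was not tested. The summed level of 8 proximal tubule genes was 7687 CPM in the tumour and 25689 in the wild type kidney. Most of that difference came from Kap, at 2042 CPM in the tumour and 18131 in the wild type kidney. Aqp1 and Cubn went the other way, at 1168 and 272 CPM in the tumour against 714 and 219 in the wild type kidney. The part of tubule cells in the kidney values was not tested.

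Wild type kidney was set against wild type muscle across 16811 genes. Tmem100 was lower in kidney by 4.31 on the log2 scale, at -4.31 ± 0.96 (SE, adjusted p 0.0212), with 0.954 CPM in kidney and 9.13 and 28.9 in the 2 muscle libraries. Vwf differed by -3.27 ± 0.89 (SE, adjusted p 0.0480), with 1.96 CPM in kidney and 18.9 ± 12.4 in muscle (SD, n = 2). Ly6c1 differed by -2.70 ± 0.71 (SE, adjusted p 0.0417), with 17.2 CPM in kidney and 112 ± 6.5 in muscle (SD, n = 2). These were the 3 of the 10 genes that edgeR called, all lower in kidney, as were 4.75% of all genes, while 8.45% were higher (13.2% in both directions). Limma-voom called none of the 3, with 938 of all genes called, and DESeq2 called 4 of the 10, with 3317 of all genes called. Over 7 settings the adjusted p of Tmem100 was between 3.23e-06 and 0.180, that of Vwf between 0.000834 and 0.186 and that of Ly6c1 between 0.000203 and 0.0814. Plvap, apart from Sele with its few counts, was the only one that was higher in kidney, with 52.7 CPM against 19.3 ± 3.5 in muscle (SD, n = 2), a log2 difference of 1.45 ± 0.56 that did not pass (adjusted p 0.145, 0.0499 to 0.424 over the settings). Pecam1 had 29.7 CPM in kidney and 95.7 ± 48.1 in muscle, Kdr 25.8 and 54.1 ± 27.7, and Selp 0.324 and 1.74 ± 0.40 (SD, n = 2 in muscle), and none of these passed. All 7 muscle libraries lay above both kidney libraries for Pecam1, Kdr, Ptprb, Tmem100, Vwf and Ly6c1, 6 of the 10, where 24.1% of all genes did. The reverse held for none of the 10 and for 32.0% of all genes. With all 7 muscle libraries as 1 group, edgeR called Pecam1, Ptprb, Tmem100, Vwf and Ly6c1 lower in kidney, 5 of the 10, against 21.5% of all genes, and none higher, against 28.5% (50.0% in both directions). Both kidney libraries were in set A, so tissue and set cannot be told apart.

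Per length of gene, on the RPKM scale of the deposited tables, Plvap led in wild type kidney at 34.2, followed by Ly6c1 at 13.7, Pecam1 at 11.6, Cldn5 at 7.75 and Kdr at 6.19. In the wild type muscle libraries Ly6c1 led, at 52.9 in library 1 and 64.8 in library 2, followed by Pecam1 at 13.8 and 38.7. Plvap was at 6.21 and 10.7 RPKM there, near Cldn5 at 8.58 and 9.46, and the order of those neighbours was not the same in both libraries. Selp and Sele were last in wild type muscle, at 0.439 and 0.422 RPKM for Selp and 0.0253 and 0.0804 for Sele. In tumour PBS muscle Selp reached 8.77 RPKM, and Tmem100 reached 66.5 RPKM in tumour MDC muscle.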

How the data were processed

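The RNA of 2 kidney and 7 muscle samples was sequenced, with a table for each. Each deposited table holds raw counts by gene symbol, the gene's length, and RPKM, which the authors derived from these. RPKM recomputed from counts and length was within 0.0005% of the deposited value. Reads were aligned with HISAT2 2.1.0 to mm10, per the submitters' processing notes. No counting program, annotation or strand setting is given in the sources used here.

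Groups followed the labels and set letters the names of the tables. CPM and log2 CPM (prior count 2) used TMM sizes over the 9 libraries, from edgeR 4.0.16 in R 4.3.3. Each group had its own coefficient in the quasi-likelihood fits, run on genes kept by filterByExpr (minimum count 10), with Benjamini-Hochberg adjustment over all genes tested and a threshold of 0.05. They covered 15482 genes in muscle and 16811 in all 9 libraries. The wild type PBS muscle pair gave each of these fits its 1 residual degree of freedom, so every single library was assumed to vary like that pair. As the pair was split between sets B and C, the error of these fits cannot be told apart from a set difference. SE is the absolute log2 change over the square root of the test's F. A second description counted genes that differed 2-fold, with at least 100 counts where higher, in the same direction against each wild type library. Alternatives were a set term, DESeq2 1.42.0, limma-voom 3.58.1, other scalings, filters and prior counts, and each wild type library left out. The calculations were tested on simulated data. Counting intervals are at 95%.

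Gene positions are from the GENCODE vM21 annotation of GRCm38, and promoters from RefSeq. All 10 genes are given in every library. From each companion list up to 2 genes in each direction were picked, those past 2-fold with the largest change, and not all are named. The 5 genes most like each set were taken by Pearson r. Arrb1, Arrb2, Gm16548, Ly6c2 and Cdh5 were added after their values were seen. The genes and lists were chosen with earlier results of these data known.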

Additional observations from a re-analysis of the deposited data

How the results depend on the processing

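No paired analysis was possible because only the wild type PBS muscle group has numbered libraries, so no number is shared between groups. With a set term in edgeR's fit the number of the 10 genes called was 7 for tumour PBS and 4 for tumour MDC against wild type PBS, 2 for DKK1 in either genotype and 7 for the labelled knockout against wild type under either treatment, where the fit without it called 0. DESeq2 called 1 for tumour PBS. For kidney against muscle, where 3 were called, a tissue term alone called 5 and limma-voom called 0 (938 genes in all).

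Counts of genes past 2-fold depended on the wild type library used. With either library left out there were 5 to 8 for tumour PBS, 6 to 7 for tumour MDC, 3 to 6 for DKK1 and 0 to 2 for the labelled knockout given PBS. The counts take both directions, and for tumour MDC against library 2 Kdr and Ptprb were lower, as was Cldn5 for the labelled knockout against library 1. These are values with no test, since no residual degree of freedom is left. Scaling by total counts moved all genes of a library by -0.42 to 0.40 on the log2 scale, and gave 3 genes for tumour MDC against wild type (139 of all genes) and 8 for DKK1 in wild type muscle (715). A line of 1.5-fold gave 8 for DKK1 in wild type (1033 of all genes), 1 for the labelled knockout given PBS (608) and 2 for DKK1 in the labelled knockout (1091). A minimum of 20 counts gave 2 in kidney (1996). The activation minus pan-endothelial difference without Plvap was 2.97 for tumour PBS, 1.91 for tumour MDC and 1.11 in kidney. It was 1.01 for tumour MDC without Kdr. For the labelled knockout given PBS it was -0.86 with a prior count of 0.5, against -0.31 with 2, where Sele had 0 counts.

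The sign turned for 12 log2 differences. The set term gave 0.68 for Ptprb in tumour PBS, 0.20 for Ptprb and 0.63 for Vwf in tumour MDC against wild type, -0.38 for Tmem100 under DKK1 in wild type, 0.0083 for Sele in the labelled knockout given PBS and 0.61 for Selp under DKK1 in the labelled knockout. Total counts gave -0.088 for Cldn5 between the tumour libraries and -0.29 for Tmem100 in the labelled knockout against wild type under DKK1. For that Tmem100 value, TMM without 4 abundant RNA genes and TMM over the 7 muscle libraries, which was chosen after seeing the data, gave -0.018 and -0.016. Limma-voom gave 0.039 for Vwf in the labelled knockout given PBS, and the tissue term alone gave -0.86 for Sele. The cause of these differences was not tested. Of the other values for single genes 690 were counted as the same, 34 crossed the threshold upwards and 4 downwards. For tested values the same means an unchanged direction and side of the threshold. The 690 also hold kidney tumour values, judged by their counting interval alone. They further hold tissue values with 1 wild type library left out, whose rule on size could not fail. Sele, with 0 to 81 counts, and Selp in kidney are limited by depth.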

Other observations

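The set of 10 genes held members that are high in different muscle libraries, and companion lists gave further values. Of 10 genes of lipid uptake in continuous capillaries, 1 (Meox2) was 2-fold or more higher in wild type DKK1 muscle, at 51.8 CPM against 15.2 and 22.3 in wild type libraries 1 and 2. In the labelled knockout given DKK1, 7 of these 10 genes were 2-fold or more below wild type DKK1, with a median log2 difference of -1.58. The summed level of the list was 1615 CPM in the labelled knockout given DKK1 and 1103 in that given PBS, against 2706 in wild type DKK1 muscle and 810 and 2458 in wild type libraries 1 and 2, so the wild type PBS pair alone spans the labelled knockout values.

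Rgs5, a gene of pericytes that wrap capillaries, had 32.9 CPM in tumour MDC muscle, against 89.7 in tumour PBS muscle. It had 177 CPM in wild type DKK1 muscle, against 12.1 and 71.1 in wild type libraries 1 and 2, an order shared with Kdr. Selplg, the leukocyte ligand of P-selectin, had 3.06 CPM in tumour MDC muscle, against 9.78 in tumour PBS muscle.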
